A study of Mus musculus with 3 samples.

Results

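The insulin-like growth factor (IGF) genes described here are the ligands Igf1 and Igf2, the receptors Igf1r, Igf2r and Insr, the binding protein genes Igfbp2, Igfbp3, Igfbp4 and Igfbp5, and Igfbpl1, which encodes a secreted relative of the binding proteins. They were taken by symbol, 10 of the 49585 genes listed for each library, and each symbol stood on a single row. Their counts were read in midbrain of C57BL/6 mice at postnatal day 3, in 2 libraries whose genotype label is FGR and 1 wild-type (WT) library. The labels do not spell out FGR or name an allele. They do not say whether a library came from 1 animal or whether the FGR libraries came from separate animals. A p-value thus measures only the spread between these samples, taken from the 2 FGR libraries because the 1 WT library gives none.

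Igf1 and Igf2 are small peptides related to insulin, and both stimulate growth through the receptor tyrosine kinase Igf1r. Igf2r binds Igf2 and carries it to lysosomes for breakdown, and the binding proteins hold IGFs outside cells and set how much reaches the receptors. In mice Igf2 is imprinted and transcribed mainly from the paternal chromosome, while H19, a noncoding RNA gene that lies near it on chromosome 7, is transcribed from the maternal one. In the young rodent brain Igf2 is known from the meninges, choroid plexus and vessels, and Igf1 from neurons and microglia.

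The libraries held 58444481 (FGR replicate 1), 46240262 (FGR replicate 2) and 52874311 (WT) counts. The gene Fgr, which shares its letters with the genotype label, had 3 and 4 counts in the FGR libraries and 6 in WT, too few to test. The X-inactivation RNA Xist had 34285 and 78 counts in FGR replicates 1 and 2 and 29129 in WT. The Y-linked gene Ddx3y had 2, 2944 and 0 counts in the same order. By these genes FGR replicate 2 read as male, and FGR replicate 1 and WT as female. Any gap between the FGR libraries is thus also a gap between sexes, and the part of sex was not tested. The midbrain markers Otx2 and En2, homeobox genes of midbrain and the midbrain-hindbrain boundary, were at 46.5 and 43.4 CPM (Otx2; CPM are counts scaled to library size) and 40.1 and 37.4 CPM (En2) in the FGR libraries, against 33.9 and 20.9 CPM in WT, and 8 of 8 genes of the midbrain list had counts in each. Of these 8, edgeR called 3 higher (Otx2, En2 and En1), against 1.66% of all tested genes. Th, Lmx1b, Foxa2 and Pitx3 were below WT in both FGR libraries without passing the test. The median log2 fold change of the list was 0.02. A list of 13 hypothalamus and ventral forebrain genes summed to 10.02 and 10.4 CPM in the FGR libraries and 57.0 CPM in WT. Of the 13, 10 were called lower, against 2.59% of all tested genes. With a single WT library, a difference in dissection or litter and the difference between groups cannot be told apart. The same holds for sex between FGR replicate 2 and WT.

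Of the 10 IGF genes, Igfbpl1 rose and Igf2, Igfbp2 and Igfbp5 fell in FGR midbrain, while the other ligand, the 3 receptors, Igfbp3 and Igfbp4 did not pass the test. A gene was called at an adjusted p under 0.05 in edgeR's quasi-likelihood test of FGR against WT, with Benjamini-Hochberg adjustment over the 25561 genes tested. The 4 of 10 calls stand against 4.25% of all tested genes called, with 1.66% of tested genes higher and 2.59% lower. All 10 genes passed the filter on low counts, and all were well covered, with 346 to 11732 counts in any library. Among the 9961 tested genes at least as abundant as the lowest of them by mean CPM, 7.08% were called, a share worked out after the data were seen. Over all genes, the 8 alternatives with a test called 4.73% (DESeq2 size factors), 5.32% (library totals alone), 5.74% (no filter on low counts), 1.61% (mean CPM 1 or more), 2.43% (DESeq2), 4.24% (limma-voom), 4.82% (robust edgeR) and 4.45% (abundant RNA genes left out). The median log2 fold change of the 10 genes was -0.12, against 0.01 over all genes tested. Scaling libraries by their totals alone moved the calls over all genes to 332 higher and 1027 lower, against 424 higher and 663 lower with TMM scaling, and left the calls of the 10 genes as they were.

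**Figure D1:**
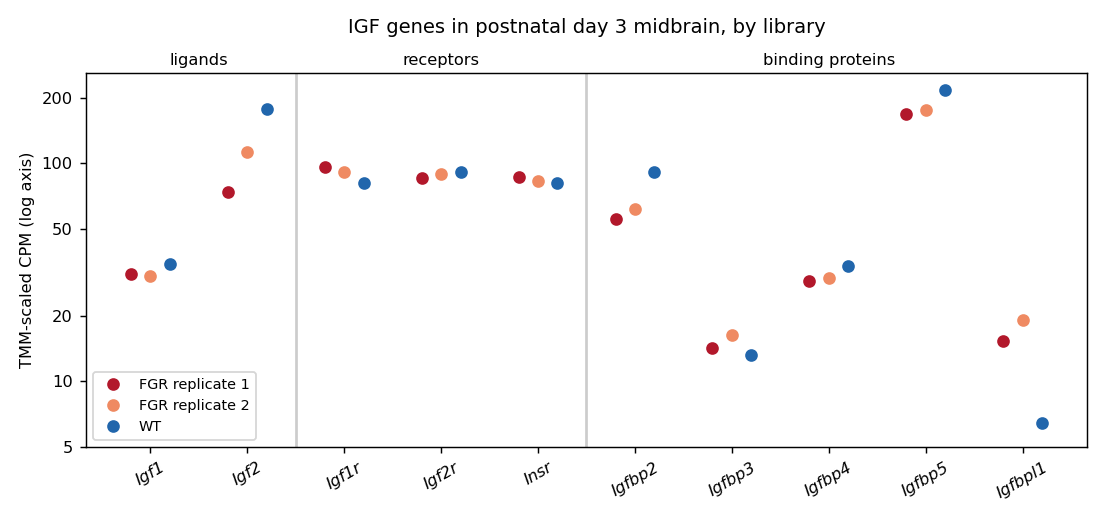
TMM-scaled CPM (log axis) of the 10 IGF genes in FGR replicate 1, FGR replicate 2 and WT, 1 point per library, grouped as ligands, receptors and binding proteins. Igf2, Igfbp2 and Igfbp5 lie lower and Igfbpl1 higher in both FGR libraries than in WT, and the receptor points lie between 81.1 and 96.4 CPM.

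Igf2, the growth factor of fetal life (ENSMUSG00000048583.16, chromosome 7), had 74.3 and 112.9 CPM in FGR replicates 1 and 2, against 177.8 CPM in WT. Both FGR libraries lay below WT and they were far apart from each other. The mean was 93.6 ± 27.3 CPM in FGR (SD, n = 2), 1.90-fold lower than in WT, and log2 FGR/WT was -0.93 ± 0.15 (SE; adjusted p = 0.00322 by edgeR). The ratio to WT was 0.418 in FGR replicate 1 (95% counting interval 0.403 to 0.433) and 0.635 in FGR replicate 2 (0.614 to 0.657), intervals that do not meet. Igf2 no longer passed under DESeq2 (adjusted p = 0.519), under a robust edgeR fit (adjusted p = 0.610) or when testing kept only genes of mean CPM 1 or more (adjusted p = 0.0748). Over the 8 alternatives with a test the adjusted p ran from 1.69e-37, with no filter on low counts, to 0.610, and the direction was the same in each. In bulk tissue, fewer cells of a type and less RNA per cell cannot be told apart.

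H19 (ENSMUSG00000000031.15) moved with its neighbour. It had 56.1 and 77.8 CPM in FGR replicates 1 and 2, against 127.5 CPM in WT, with the same order of libraries as Igf2. Log2 FGR/WT was -0.93 ± 0.12 (SE; adjusted p = 6.59e-04 by edgeR), and H19 likewise no longer passed under DESeq2 (adjusted p = 0.275) or the robust fit (adjusted p = 0.518), within a range of 1.08e-36 to 0.518 over the alternatives. For every count of Igf2 there were 0.755 and 0.688 counts of H19 in the FGR libraries and 0.717 in WT. The antisense gene Igf2os, which overlaps Igf2, had 68 and 66 counts in the FGR libraries and 94 in WT, and the sources used here do not say whether counting used the strand.

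Markers of leptomeningeal fibroblasts, the cells of the inner meninges, moved with Igf2. All 12 of the list were lower in both FGR libraries, 9 of them called, with a median log2 fold change of -0.96. Over all tested genes, 38.2% were lower in both FGR libraries and 2.59% were called lower. The summed level of the 12 was 211.9 and 331.3 CPM in FGR replicates 1 and 2, against 513.0 CPM in WT. No marker was at 0 in any library. The highest by CPM, which does not correct for gene length, were the collagen genes Col3a1, at 84.9 and 124.6 CPM in the FGR libraries and 210.4 CPM in WT, and Col1a2, at 54.8 and 83.8 CPM in the FGR libraries and 120.03 CPM in WT. Each of the 12 was lower in FGR replicate 1 than in FGR replicate 2, as Igf2 was. The log2 ratio to WT ran from -1.60 to -0.95 over the markers in FGR replicate 1, where that of Igf2 was -1.26, and from -1.02 to -0.09 in FGR replicate 2, where that of Igf2 was -0.65.

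Set against the summed CPM of these 12 markers, Igf2 stood at 0.351 and 0.341 in the FGR libraries and 0.347 in WT. This was nearly the same value in every library. Col3a1 and Col1a2 gave most of the sum in each library, so this ratio mainly sets Igf2 against these collagen genes. For H19 this ratio was 0.265 and 0.235 in the FGR libraries and 0.248 in WT. Igfbp2 stood at 0.262 and 0.186 in the FGR libraries and 0.178 in WT, and Igfbp5 at 0.795 and 0.530 in the FGR libraries and 0.425 in WT, so neither kept one value as Igf2 did. Both ratios were highest in FGR replicate 1, where the marker sum they are divided by was lowest, so this is no separate result about the binding protein genes.

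**Figure D2:**
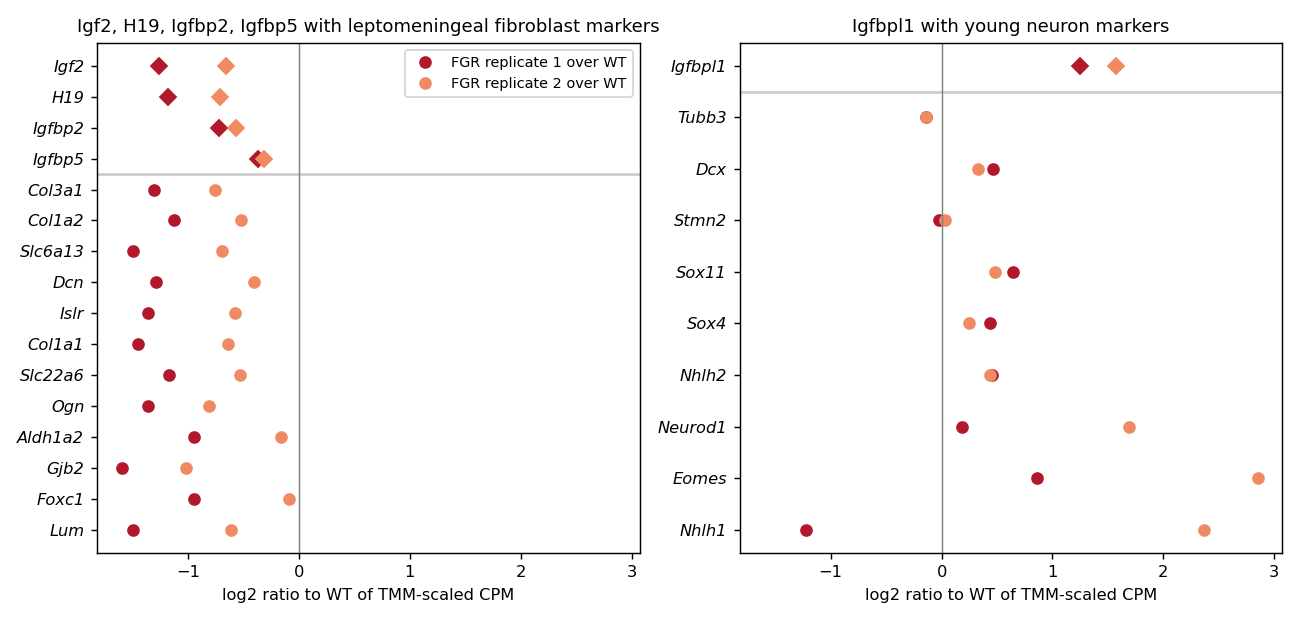
Log2 ratio to WT of TMM-scaled CPM in FGR replicate 1 and FGR replicate 2. The left panel sets Igf2, H19, Igfbp2 and Igfbp5 (diamonds) above 12 leptomeningeal fibroblast markers (circles), and the right panel sets Igfbpl1 above 9 young neuron markers. Igf2 and H19 lie within the range of the meningeal markers in each FGR library, and Igfbpl1 lies to the right of most young neuron markers.

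The choroid plexus, another known source of Igf2, gave little signal in any library. Its 9 markers summed to 23.7 and 26.6 CPM in the FGR libraries and 25.1 CPM in WT, a sum of which Prlr was the largest part. In both FGR libraries 6 of the 9 were below WT, against 38.2% of all tested genes, and the median log2 fold change was -0.38. The smallest adjusted p of the list was 0.0561 by edgeR, that of Ttr. Prlr, the prolactin receptor gene and the highest of the list by CPM, was at 13.4 and 11.2 CPM in the FGR libraries and 11.6 CPM in WT, and the channel gene Kcnj13 at 2.19 and 3.35 CPM in the FGR libraries and 3.62 CPM in WT. Ttr, which encodes the transthyretin that the choroid plexus secretes, had 73 and 194 counts in the FGR libraries and 36 in WT. Ttr, added after its values were seen, was higher in both FGR libraries without passing the test. Among markers of vessels, also a known source, edgeR called 4 of 10 endothelial and 3 of 10 mural genes lower, against 2.59% of all tested genes. The part of each source in the Igf2 values was not tested.

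Igf1 (ENSMUSG00000020053.18, chromosome 10), the ligand that carries growth hormone action after birth, had 30.9 and 30.5 CPM in the FGR libraries, against 34.6 CPM in WT. The FGR libraries were close together and slightly below WT, with log2 FGR/WT at -0.17 ± 0.09 (SE; adjusted p = 0.337 by edgeR). Of 10 microglia markers 3 were called lower, against 2.59% of all tested genes. The markers summed to 123.8 and 134.4 CPM in the FGR libraries and 171.03 CPM in WT. Among them Csf1r, the receptor gene of a microglial survival signal, was at 27.8 and 30.7 CPM in the FGR libraries and 40.0 CPM in WT. The part of these cells in the Igf1 values was not tested.

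Between the IGF genes, levels are compared only per length, as deposited RPKM (reads scaled to gene length and library size). Igf2 was at 12.9 and 19.5 RPKM in the FGR libraries and 31.6 RPKM in WT, and Igf1 at 3.10 and 3.04 RPKM in the FGR libraries and 3.56 RPKM in WT. The Igf2 to Igf1 ratio in RPKM was 4.16 and 6.41 in the FGR libraries and 8.89 in WT. By RPKM, Igf2 was at rank 4395 and 2739 among all listed genes in the FGR libraries and at rank 1638 in WT.

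None of the 3 receptor genes was called by edgeR at an adjusted p under 0.05 (1 of 3, Igf1r, had an unadjusted p under 0.05), and no alternative called any of them. Igf1r (ENSMUSG00000005533.10, chromosome 7), the receptor that passes on the growth signal of both ligands, had 96.4 and 91.0 CPM in the FGR libraries, against 81.1 CPM in WT. Both FGR libraries lay above WT by more than counting error, with ratios of 1.19 (95% counting interval 1.14 to 1.24) and 1.12 (1.08 to 1.17). Log2 FGR/WT was 0.21 ± 0.07 (SE; adjusted p = 0.103 by edgeR). Igf1 and Igfbp4, also not called, lay below WT by more than counting error in both FGR libraries.

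Igf2r (ENSMUSG00000023830.13, chromosome 17), the clearance receptor, had 85.9 and 89.3 CPM in the FGR libraries, against 91.2 CPM in WT, with log2 FGR/WT at -0.06 ± 0.07 (SE; adjusted p = 0.699 by edgeR). Airn, the noncoding antisense gene that overlaps Igf2r and takes part in its imprinting, had 91 and 97 counts in the FGR libraries and 99 in WT. The insulin receptor gene Insr (ENSMUSG00000005534.10) had 86.8 and 83.0 CPM in the FGR libraries, against 81.6 CPM in WT, with log2 FGR/WT at 0.06 ± 0.07 (SE; adjusted p = 0.708 by edgeR). For both genes the gap between the FGR libraries was about as large as the gap to WT. Summed over the 3 receptors, the level per length was 21.0 and 20.7 RPKM in the FGR libraries and 20.8 RPKM in WT. The ligand sum was 16.0 and 22.6 RPKM in the FGR libraries and 35.2 RPKM in WT.

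**Figure D3:**
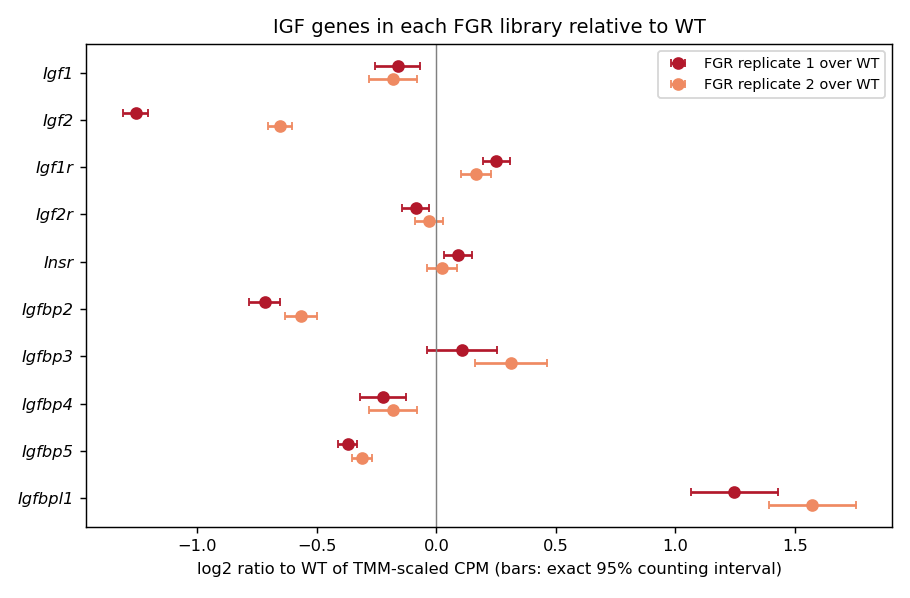
Log2 ratio of TMM-scaled CPM in FGR replicate 1 and FGR replicate 2 to WT for each IGF gene, with exact 95% intervals that cover counting error only. The intervals of Igf2 in the FGR libraries do not meet, at -1.26 and -0.65, nor do those of Igfbp2, at -0.72 and -0.57. Those of Igfbp2 and Igfbp5 lie below 0 in both, and those of Igfbpl1 lie above 1 in both.

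Of the binding protein genes, Igfbp2 and Igfbp5 fell, Igfbpl1 rose, and Igfbp3 and Igfbp4 did not pass the test. The start regions of the 3 called genes of the IGF family that fell are shown because they fell together. They are 250 bases before an annotated start, credited to RefSeq on GRCm38.p6, matched by symbol and written along the gene's strand. Capitals mark GGGCGG or its reverse complement CCGCCC, the core of the GC box that Sp1-type factors bind. For Igf2, the most downstream of 4 annotated starts is shown, and for Igfbp2 the upstream one of 2.
Igf2 (chr7:142657497-142657746, minus strand): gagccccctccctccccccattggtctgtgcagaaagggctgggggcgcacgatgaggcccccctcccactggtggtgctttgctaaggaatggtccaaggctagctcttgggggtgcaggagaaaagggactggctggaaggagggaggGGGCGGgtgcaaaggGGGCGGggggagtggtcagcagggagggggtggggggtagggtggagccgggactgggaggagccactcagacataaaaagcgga
Igfbp2 (chr1:72824230-72824479, plus strand): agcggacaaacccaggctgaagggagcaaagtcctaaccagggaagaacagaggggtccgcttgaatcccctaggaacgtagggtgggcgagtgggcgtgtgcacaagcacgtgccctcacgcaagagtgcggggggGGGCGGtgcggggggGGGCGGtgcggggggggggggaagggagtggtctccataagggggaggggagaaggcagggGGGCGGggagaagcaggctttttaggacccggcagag
Igfbp5 (chr1:72874866-72875115, minus strand): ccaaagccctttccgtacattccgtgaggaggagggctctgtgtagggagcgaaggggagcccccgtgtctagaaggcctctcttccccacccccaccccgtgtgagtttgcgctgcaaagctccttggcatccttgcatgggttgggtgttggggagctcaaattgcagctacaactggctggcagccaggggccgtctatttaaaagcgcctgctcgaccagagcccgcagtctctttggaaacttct
GGGCGG, read on both strands, occurred 2 times in this Igf2 window, 3 times in the Igfbp2 window and 0 times in the Igfbp5 window, and 32.7% of 32851 such windows held it. The other 3 Igf2 windows, from the next start upstream, held it 1, 0 and 0 times, and the other Igfbp2 window 0 times, so the windows shown are those with the most matches for these genes. TATAAA, read on both strands, was in none of the 3, and 12.4% of all windows held it. Windows of 8 of the 10 IGF genes were matched, and Igfbpl1 and Insr were not. The counts are per gene and do not tell which start was used.

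Igfbp2 (ENSMUSG00000039323.18, chromosome 1), whose product is abundant in the developing brain and cerebrospinal fluid, had 55.4 and 61.5 CPM in the FGR libraries, against 91.2 CPM in WT. The FGR libraries were closer to each other than to WT, with ratios of 0.608 (95% counting interval 0.581 to 0.636) and 0.675 (0.644 to 0.707). These intervals do not meet either. The mean was 58.5 ± 4.33 CPM in FGR (SD, n = 2), 1.56-fold lower than in WT, with log2 FGR/WT at -0.64 ± 0.07 (SE; adjusted p = 1.29e-04 by edgeR). This call held in all 8 alternatives with a test, with adjusted p from 4.96e-16 to 0.0172.

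Igfbp5 (ENSMUSG00000026185.8), the next protein-coding gene to Igfbp2 on chromosome 1 and a binding protein that also attaches to extracellular matrix, had 168.5 and 175.6 CPM in the FGR libraries, against 218.0 CPM in WT. The mean was 172.04 ± 4.98 CPM in FGR (SD, n = 2), with log2 FGR/WT at -0.34 ± 0.08 (SE; adjusted p = 0.0203 by edgeR). This was 1.27-fold lower than in WT, with ratios of 0.773 (95% counting interval 0.753 to 0.794) and 0.805 (0.783 to 0.829). Among the 8 alternatives with a test, it no longer passed when testing kept only genes of mean CPM 1 or more (adjusted p = 0.0724, in a range of 3.01e-04 to 0.0724). Of the protein-cleaving enzymes that act on binding proteins, Htra1, a secreted serine protease, also fell, at 15.3 and 15.8 CPM in the FGR libraries and 22.9 CPM in WT (edgeR adjusted p = 0.0159, and 3.65e-04 to 0.0642 over the alternatives, where it missed under DESeq2 and with mean CPM 1 or more). Pappa, which cleaves Igfbp4, was at 13.7 and 12.01 CPM in the FGR libraries and 14.5 CPM in WT (edgeR adjusted p = 0.556).

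Some markers of other cell types were also lower, and the counts below stand against 2.59% of all tested genes called lower. Of 10 astrocyte genes 4 were called lower, and the list summed to 984.5 and 1102 CPM in the FGR libraries and 1237 CPM in WT. Its highest genes by CPM were the glutamate transporter genes Slc1a3, at 262.0 and 323.9 CPM in the FGR libraries and 309.8 CPM in WT, and Slc1a2, at 196.5 and 209.0 CPM in the FGR libraries and 243.1 CPM in WT. Of 10 mural cell genes 3 were called lower, with sums of 173.2 and 179.3 CPM in the FGR libraries and 252.1 CPM in WT, led by Rgs5 at 52.5 and 47.4 CPM in the FGR libraries and 69.7 CPM in WT. Of 10 endothelial genes 4 were called lower, with sums of 175.5 and 177.9 CPM in the FGR libraries and 214.7 CPM in WT, led by the tight junction gene Cldn5 at 48.5 and 44.1 CPM in the FGR libraries and 57.0 CPM in WT. Not all members were lower: the glucose transporter gene Slc2a1, the next endothelial gene by CPM, was at 31.3 and 31.8 CPM in the FGR libraries and 29.1 CPM in WT (adjusted p = 0.566 by edgeR), and Slc1a3 was above WT in FGR replicate 2. Cspg4, the next mural gene by CPM, was at 47.9 and 54.2 CPM in the FGR libraries and 58.2 CPM in WT (adjusted p = 0.205 by edgeR). No marker of these lists was at 0, and the part of these cells in the Igf2, Igfbp2 and Igfbp5 values was not tested.

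Igfbp4 (ENSMUSG00000017493.12) and Igfbp3 (ENSMUSG00000020427.11), both on chromosome 11, were not called. Igfbp4 had 29.0 and 29.9 CPM in the FGR libraries, against 33.9 CPM in WT, with log2 FGR/WT at -0.20 ± 0.09 (SE; adjusted p = 0.259 by edgeR). Igfbp3, the main IGF carrier in blood, had 14.2 and 16.4 CPM in the FGR libraries, against 13.2 CPM in WT, with log2 FGR/WT at 0.21 ± 0.14 (SE; adjusted p = 0.469 by edgeR). FGR lay below WT for Igfbp4 and above it for Igfbp3 in both libraries, but the counting interval of the Igfbp3 ratio in FGR replicate 1 (0.973 to 1.19) included 1.

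Igfbpl1 (ENSMUSG00000035551.6, chromosome 4), known from young neurons and their progenitors, was the only one of the 10 called higher. It had 885 and 873 counts in the FGR libraries against 346 in WT, or 15.3 and 19.1 CPM in the FGR libraries against 6.43 CPM in WT. Both FGR libraries were more than 2-fold above WT, with ratios of 2.37 (95% counting interval 2.09 to 2.70) and 2.97 (2.62 to 3.37). The mean was 17.2 ± 2.72 CPM in FGR (SD, n = 2), 2.67-fold higher, with log2 FGR/WT at 1.42 ± 0.16 (SE; adjusted p = 2.41e-04 by edgeR). The call held in all 8 alternatives with a test, with adjusted p from 1.93e-17 to 0.0233.

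Of 9 young neuron markers 3 (Sox11, Sox4 and Nhlh2) were called higher, against 1.66% of all tested genes. The median log2 fold change of the list was 0.44. Their summed level was 3465 and 3342 CPM in the FGR libraries and 3133 CPM in WT. The tubulin gene Tubb3 was at 1192 and 1187 CPM in the FGR libraries and 1311 CPM in WT, and Dcx, a microtubule gene of migrating neurons, at 855.6 and 776.0 CPM in the FGR libraries and 618.5 CPM in WT. Neurod1, Eomes and Nhlh1, all picked out after their values were seen, were highest in FGR replicate 2. Neurod1 had 3.55 and 10.1 CPM in FGR replicates 1 and 2 and 3.12 CPM in WT. Eomes had 0.776 and 3.08 CPM in FGR replicates 1 and 2 and 0.427 CPM in WT. Nhlh1 had 6 and 57 counts in FGR replicates 1 and 2 and 13 in WT, so FGR replicate 1 lay below WT. None of these passed the test (adjusted p = 0.152 for Neurod1, 0.0792 for Eomes and 0.486 for Nhlh1 by edgeR). The part of young neurons in the Igfbpl1 values was not tested.

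Per length, the 5 binding protein genes summed to 73.3 and 79.5 RPKM in the FGR libraries and 101.3 RPKM in WT. Igfbp2 gave 40.6% and 41.4% of that sum in the FGR libraries and 49.6% in WT. Igfbpl1 gave 6.36% and 7.31% in the FGR libraries and 1.99% in WT, while the share of Igfbp5 was 38.0% and 36.3% in the FGR libraries and 36.5% in WT. The Igfbp2 to Igfbpl1 ratio in RPKM was 6.39 and 5.67 in the FGR libraries and 24.96 in WT.

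**Figure D4:**
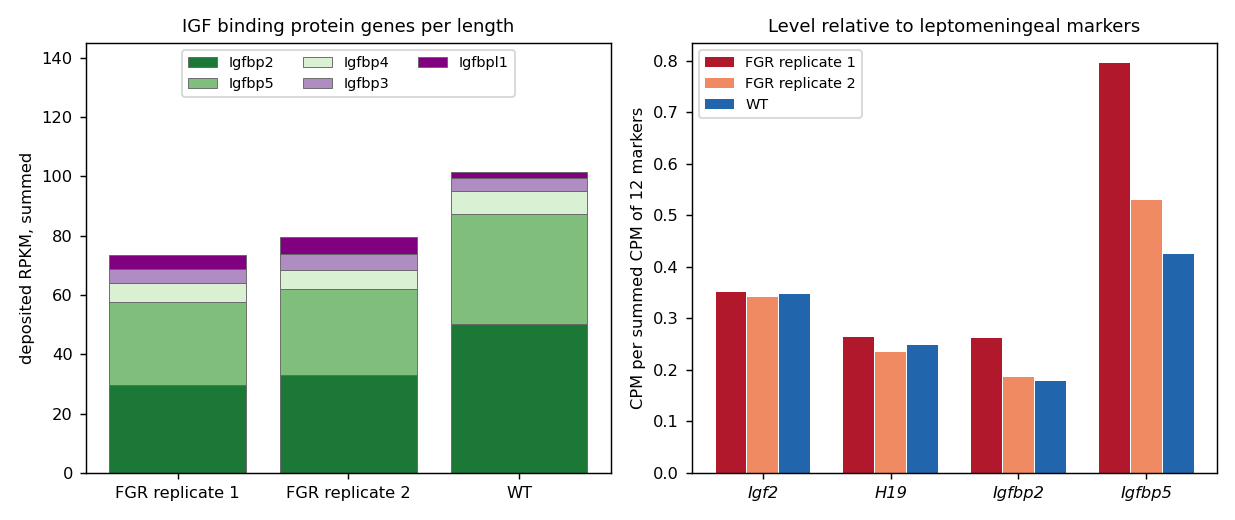
Left, deposited RPKM of the 5 binding protein genes stacked for FGR replicate 1, FGR replicate 2 and WT, where the totals are 73.3, 79.5 and 101.3. Right, CPM of Igf2, H19, Igfbp2 and Igfbp5 per summed CPM of 12 leptomeningeal fibroblast markers in the same libraries. Col3a1 and Col1a2 gave most of that sum, and the Igf2 bars are at 0.351, 0.341 and 0.347.

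In every library the order of the 10 genes by RPKM began with Igfbp2, Igfbp5, Igf2, Igf2r, Igfbp4 and Insr. Igfbp2 was at 29.8 and 32.9 RPKM in the FGR libraries and 50.2 RPKM in WT, and Igfbp5 at 27.8 and 28.9 RPKM in the FGR libraries and 36.9 RPKM in WT. The gap between these 2 genes in FGR replicate 1 was narrower than the gap between the FGR libraries for Igfbp2, so their order there is not resolved. Nor are the places of Igfbp4 and Insr in FGR replicate 1, at 6.52 and 6.26 RPKM, or those of Insr and Igfbpl1 in FGR replicate 2, at 5.97 and 5.81 RPKM, since each gap was narrower than the gap between the FGR libraries for Insr. The lower places changed: Igfbpl1 was last in WT at 2.01 RPKM and stood above Igfbp3 and Igf1 in both FGR libraries, at 4.66 and 5.81 RPKM. In FGR replicate 1 Igfbpl1 and Igfbp3, at 4.66 and 4.50 RPKM, were closer than the FGR libraries were for either gene, so their order there is not resolved. Likewise Insr and Igf1r, at 6.26 and 5.70 RPKM in FGR replicate 1 and 5.97 and 5.36 RPKM in FGR replicate 2, kept their order, but the gap was not much wider than the spread of either gene.

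Of 25 other genes of the pathway, 22 were tested and 3 fell by edgeR, against 2.59% of all genes called lower: H19, Htra1 and Irs4. The median log2 fold change of the 22 was -0.13. Irs4 (ENSMUSG00000054667.7, X chromosome), an insulin receptor substrate known from the hypothalamus, had 25.2 and 23.1 CPM in the FGR libraries, against 41.9 CPM in WT, with log2 FGR/WT at -0.79 ± 0.10 (SE; adjusted p = 3.51e-04 by edgeR, and 1.83e-12 to 0.0185 over the alternatives). The hypothalamus and ventral forebrain list was also lower, but by far more, with a median log2 fold change of -3.51. Its highest genes by mean CPM were Sim1 and Pmch. Sim1, a transcription factor gene of neuroendocrine neurons, was at 1.81 and 1.86 CPM in the FGR libraries and 10.1 CPM in WT. The peptide gene Pmch was at 0.431 and 0.416 CPM in the FGR libraries and 11.5 CPM in WT. Otp was above WT in both FGR libraries, at 3.78 and 3.78 CPM against 2.90 CPM. Otp, Pomc and Rax were not called (adjusted p = 0.314, 0.614 and 0.139 by edgeR). In FGR replicate 1, 2 of the 13 genes of that list were at 0, and its part in the Irs4 value was not tested.

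Irs1, Grb10 and H19 had the highest CPM of the pathway genes, a scale that does not correct for gene length. Per length H19 stood above Irs1, at 23.5 and 32.4 RPKM in the FGR libraries and 54.7 RPKM in WT for H19, against 15.8 and 15.9 RPKM in the FGR libraries and 14.6 RPKM in WT for Irs1. Irs1, an adaptor in the signalling of Igf1r and Insr, had 145.6 and 146.7 CPM in the FGR libraries, against 130.9 CPM in WT (edgeR adjusted p = 0.245). Grb10, an imprinted adaptor that restrains the same receptors, had 100.9 and 103.02 CPM in the FGR libraries, against 116.7 CPM in WT (edgeR adjusted p = 0.121). The RNA-binding protein gene Igf2bp3 was at 20.7 and 20.6 CPM in the FGR libraries and 19.5 CPM in WT (edgeR adjusted p = 0.791). The insulin genes Ins1 and Ins2 had at most 1 count in a library and were not tested.

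The genes most like each called IGF gene were those whose pair of log2 ratios to WT lay nearest among 10163 genes of mean CPM 10 or more, which describes 3 libraries. Nearest to Igf2 were Thbd, which encodes thrombomodulin, at a distance of 0.00825, and the secreted factor gene Angptl2 at 0.0717. Nearest to Igfbp2 were Angptl4 at 0.0144, Isyna1, the enzyme gene of inositol synthesis, at 0.0291 and the fibrillin gene Fbn2 at 0.0295. Nearest to Igfbp5 were Inpp5j at 0.00561, Myl12a at 0.00997 and the semaphorin gene Sema6d at 0.0108. Of these, Inpp5j and Myl12a were not called (adjusted p = 0.169 and 0.170 by edgeR). Nearest to Igfbpl1 were Cnpy1 at 0.172, Ndst4, an enzyme gene of heparan sulphate synthesis, at 0.340 and the homeobox gene Meis1 at 0.370. A distance also depends on how many genes have ratios of that size, so distances are not compared between the IGF genes.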

How the data were processed

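RNA from frozen brain was extracted with Trizol and sequenced from TruSeq libraries, per the labels' protocols. The aligner HISAT2 appears per the submitters' processing notes, with version, build and counter not given in the sources used here. The authors deposited for each library raw counts per gene, a gene length and an RPKM value, which equalled that computed from count, length and library total within 0.1% in all 49585 rows of each library. What the length covers is not stated.

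The test used edgeR 4.0.16 under R 4.3.3 (minimum count 10 in filterByExpr, TMM scaling, two-sided quasi-likelihood F test), with 1 residual degree of freedom. That degree of freedom came from the FGR pair, which differed in sex-linked genes, and WT was assumed to vary like FGR. SE is the absolute log2 change over the root of F. CPM values are TMM-scaled, and counting intervals are exact binomial. Alternatives used DESeq2 1.42.0, limma 3.58.1 (voom), other scalings and filters, and a robust fit. The test was tried on simulated data. Members and lists were chosen with earlier results of these data known. Named were the 10 members, the called pathway genes, the 3 pathway genes and the 2 genes of each marker list with the highest mean CPM, and the 3 genes nearest each called member. Some genes this rule named are not reported here. Other genes were added after their values were seen. Of these, Igf2os, Airn, Pappa, Igf2bp3, Ins1, Ins2, Fgr, Xist and Ddx3y lay outside the marker lists. Ttr, En1, Th, Lmx1b, Foxa2, Pitx3, Sox11, Sox4, Nhlh1, Nhlh2, Neurod1, Eomes, Otp, Pomc and Rax came from the marker lists.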

Additional observations from a re-analysis of the deposited data

How the results depend on the processing

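Over all genes, 1087 were called, against 1952 at an adjusted p under 0.1, 2057 with no filter on low counts, 301 for genes of mean CPM 1 or more and 358 in DESeq2. Of the 10 IGF genes 4 were called, against 2 for genes of mean CPM 1 or more (Igfbp2 and Igfbpl1). Of the other pathway genes 3 were called, against 6 with no filter on low counts and 1 in DESeq2 (Irs4), and the cause of these moves was not tested. Without either FGR library there was no test. The log2 fold change then ran from -1.26 to -0.67 for Igf2, from -0.72 to -0.58 for Igfbp2, from -0.37 to -0.33 for Igfbp5 and from 1.24 to 1.55 for Igfbpl1. No paired analysis was possible with 1 WT library.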
